A study of Mus musculus with 18 samples.

Results

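The genes described here are 8 that flank *Tspan2* on mouse chromosome 3, namely *Casq2*, *Vangl1*, *Tshb*, *Sycp1*, *Sike1*, *Nras*, *Bcas2* and *Trim33*. They were taken by symbol, 8 of the 55453 symbols in each count table, because an edit in the *Tspan2* promoter could in principle alter transcripts of the surrounding locus. Bulk RNA-seq measured polyadenylated RNA of single mouse aortae, which the methods describe as cleaned of periadventitial tissue. In the HDR experiment, homology-directed repair with Cas9, an sgRNA and a single-stranded oligonucleotide (ssODN) had replaced bases of the CArG box, a motif bound by serum response factor (SRF), and 5 wild-type (WT) aortae were compared with 5 *Tspan2* sg/sg aortae at 12 weeks of age. The labels list the strain as C57BL/6 and give 3 females and 2 males per genotype. In the PE2 experiment, mRNA of prime editor 2 (a nickase form of Cas9 joined to reverse transcriptase) and a pegRNA had changed a single base of the same box, and 4 WT aortae were compared with 4 *Tspan2* peg/peg aortae at 8 weeks of age. The labels list the strain as FVB/N/B6(Cg)-Tyrc-2J/J and give 3 females and 1 male (replicate 4) of the WT and 4 peg/peg females. Both edits were made in zygotes of B6(Cg)-Tyr2J/J males and FVB/NJ females, and founders were bred to C57BL/6J before heterozygotes were intercrossed. The sources used here do not say which strain's sequence the genes beside the edit carried in each mouse, so the edit and a linked strain difference cannot be told apart. The HDR columns give a genotype and a number from 2 to 6 that matches no sample label, so the sex behind each HDR library is unknown.

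SRF binds CArG boxes in the promoters of many contractile and cytoskeletal genes of smooth muscle, and *Tspan2*, which encodes a tetraspanin membrane protein, is one of the genes it regulates. Genes that neighbour each other on a chromosome can share enhancers and chromatin domains, so the transcripts around an edited regulatory site are a usual check of how far its effect reaches. The members have unrelated functions. *Casq2* encodes the cardiac form of calsequestrin, the calcium-binding protein of the sarcoplasmic reticulum. *Vangl1* encodes a membrane protein of planar cell polarity, and *Tshb* the beta subunit of thyrotropin, the pituitary hormone that drives the thyroid. *Sycp1* encodes the transverse filament of the synaptonemal complex, which holds homologous chromosomes together in meiosis. *Sike1* encodes a suppressor of the kinases IKKε and TBK1, *Nras* a small GTPase upstream of the ERK cascade, *Bcas2* a subunit of the Prp19 spliceosome complex, and *Trim33* a ubiquitin ligase that acts in TGF-β and Smad signalling.

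The edited site is shown because it is what distinguishes the genotypes. The 3 lines give the same 27-base stretch of the designed oligonucleotides 5′ to 3′, with the 10 bases of the CArG box in capitals.
Wild type: gttcttgCCTATTAAGGtaacagtcct
HDR repair template: gttcttgGTCATTAAGGtaacagtcct
pegRNA extension: guucuugGCUAUUAAGGuaacaguccu
Counted from 1 at the 5′ end of this stretch, the HDR template carried C8G, C9T and T10C, and the pegRNA carried C8G alone.

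On GRCm38 (Gencode M21) the members lie between position 102086415, the start of *Casq2*, and 103358775, the end of *Trim33*. *Casq2* (chromosome 3, 102086415 to 102146514, plus strand) and *Vangl1* (102153583 to 102204693, minus strand) are upstream of *Tspan2*, with start sites 648 and 530 kb before its start at 102734529. *Tshb* (102775465 to 102782718, minus strand) lies within the span of *Tspan2*, on the opposite strand. *Sycp1* (102818499 to 102936100, minus strand) is the next member downstream. It is transcribed toward *Tspan2*, with 17.0 kb between the ends of both genes. *Sike1* (102995708 to 103008459), *Nras* (103058285 to 103067914), *Bcas2* (103171655 to 103179166) and *Trim33* (103279293 to 103358775) follow on the plus strand, with starts 261, 324, 437 and 545 kb from that of *Tspan2*. The list is not complete, since other protein-coding genes such as *Nr1h5*, *Ampd1* and *Dennd2c* are annotated between its outermost members.

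HDR libraries held 17290992 to 24880385 counts, and PE2 libraries 38820265 to 44895615. Smooth muscle markers (*Acta2*, *Myh11* and 5 others) summed to 15916 CPM or more in every library, so smooth muscle RNA was present throughout. This sum cannot show that a library held no other tissue. The highest PE2 sum, 52509 CPM, was that of peg/peg library 3, which stood apart in other markers. Values are CPM, counts scaled to the TMM library size within each experiment. They are given as mean ± SD over libraries, and fold changes with a standard error (SE). *Tspan2* itself fell from 209 ± 60.1 to 24.9 ± 8.12 CPM in HDR aortae (n = 5 per genotype) and from 218 ± 45.0 to 19.96 ± 6.74 CPM in PE2 aortae (n = 4 per genotype), which matched the labels in all 18 libraries. The edgeR adjusted p was 0.00226 and 0.0292, and the latter rose above 0.05 when any single PE2 library other than peg/peg library 3 was left out. One library of each experiment stood apart. Peg/peg library 3 had 1190 CPM summed over 7 skeletal muscle markers, against 7.48 to 20.1 in the other 7 PE2 libraries, and 1041 CPM over 7 cardiac muscle markers, against 50.8 to 190 in the others. Of its cardiac sum, *Tnnt2* held 518 and *Actc1* 509 CPM, and not every marker of these lists was high there. HDR WT library 3 was the highest of its experiment in both lists, with 157 and 275 CPM, against at most 77.6 and 201 in the others. In bulk RNA, fewer cells of a type and less RNA per cell cannot be told apart.

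Enough counts for a test were found for 6 of the 8 members in HDR aortae and for 7 in PE2 aortae. *Tshb* failed in both and *Sycp1* in HDR aortae. By the quasi-likelihood test of edgeR, with Benjamini-Hochberg adjusted p under 0.05 over all genes, 0 members were called in either experiment. It called 0.00609% of 16423 genes in HDR and 0.0061% of 16401 genes in PE2 aortae. Without adjustment, p was under 0.05 for 1 of 6 members in HDR aortae (*Casq2*), against 1.98% of all genes tested, and 2 of 7 in PE2 aortae (*Sycp1* and *Casq2*), against 4.3%. *Sycp1* passed the PE2 filter only through the peg/peg group, in which it is high, so its place among the genes tested is not independent of its difference, and without it the PE2 count is 1 of 6. DESeq2's Wald test called 0 members in the HDR experiment, where it called 0.00933% of genes with a p, and 1 member (*Sycp1*) in the PE2 experiment, where it called 0.114%. limma voom called 0 members in either, against 0.00609% and 0.0061% of genes. Unadjusted p was under 0.05 for 0 members in HDR aortae by either of these tests, against 1.6% of genes by both, and for 1 member (*Sycp1*) in PE2 aortae by either, against 3.59% of genes by DESeq2 and 3.27% by limma voom. The median absolute log2 fold change was 0.02 over the HDR and 0.16 over the PE2 members tested, beside 0.09 and 0.17 over all genes tested. The median SE was also smaller over these members, at 0.096 and 0.14, beside 0.19 and 0.22 over all genes. Whether this locus was more stable than others was not tested. In HDR aortae no member had groups that did not overlap, and 0.122% of all genes tested were higher and 0.195% lower in every mutant library than in every WT library. In PE2 aortae 1 member was apart in the higher direction (*Sycp1*, against 1.43% of all genes) and 1 in the lower (*Bcas2*, against 1.1%).

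**Figure D1:**
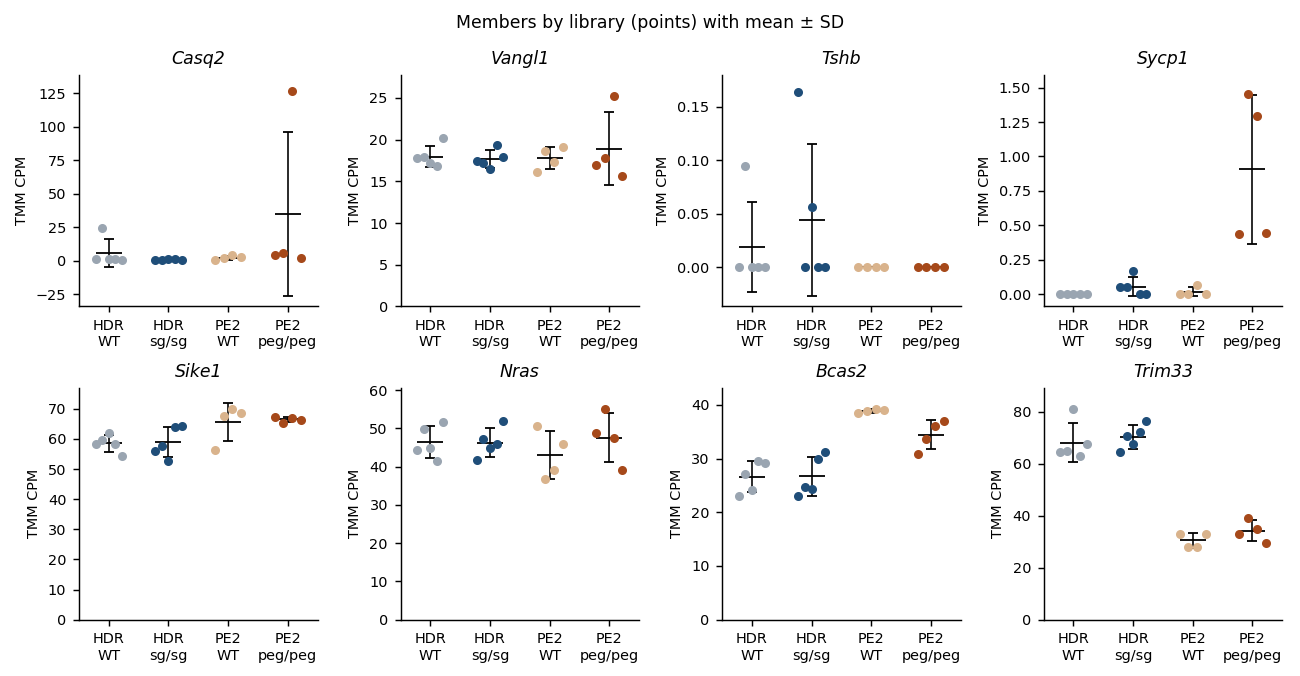
TMM CPM of the 8 members in each library (points), by experiment and genotype, with the mean and SD of each group in black. *Sycp1* was apart between PE2 genotypes, *Casq2* was dominated by 1 HDR WT and 1 peg/peg library, and the panels of *Vangl1*, *Sike1* and *Nras* show groups that overlap in both experiments.

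*Sycp1* was the member with the largest difference. In the PE2 experiment, its counts were 0, 0, 3 and 0 in WT libraries 1 to 4, and 18, 57, 59 and 17 in peg/peg libraries 1 to 4. All 4 peg/peg libraries lay above all 4 WT libraries. The mean was 0.0165 ± 0.0331 CPM in WT and 0.906 ± 0.543 CPM in peg/peg aortae (n = 4 each). Libraries 2 and 3 of the peg/peg group, at 1.45 and 1.30 CPM, held more than libraries 1 and 4, at 0.436 and 0.443 CPM. Pooled by genotype, 3 WT and 151 peg/peg counts gave a ratio of 50.6, with an exact 95% interval of 17.0 to 248 that covers counting error only. The log2 fold change was 5.45 (SE 1.01, 95% interval 3.13 to 7.78, edgeR unadjusted p = 0.000619, adjusted p = 0.861). This p is of a gene that entered the test through its high group. An exact permutation test (two-sided) returned p = 0.0286, the smallest that 4 libraries against 4 allow. DESeq2 gave a log2 fold change of 5.67 (SE 1.12) with an adjusted p of 0.000644, so the call depended on the test used. Without peg/peg library 3, the log2 fold change was 5.21 (edgeR unadjusted p = 0.00102, adjusted p = 0.468), and without libraries 2 and 3 of that group it was 4.41 (edgeR unadjusted p = 0.00518, not called after adjustment). That pair was chosen after seeing the data and held the most *Sycp1* of the group. The p of both fits has the same limit, that the gene entered through its high group.

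The level of *Sycp1* remained low even in peg/peg aortae. Per kilobase of exon it reached 0.255 CPM there, against 8.93 for *Nras* and 6.46 for *Sike1* in the same libraries. In HDR aortae *Sycp1* had 0 counts in all 5 WT libraries, which allows a level of up to 0.0277 CPM over the group. It had 1, 1, 3, 0 and 0 counts in sg/sg libraries 2 to 6. The groups overlapped, and the difference did not pass a test (exact permutation p = 0.167, DESeq2 unadjusted p = 0.253). The sg/sg libraries 2 and 4 also held the most counts in 18 pseudogenes and lincRNAs within 1 Mb of *Tspan2* that were too low to test, with 15 and 19 counts against 1 to 5 in the other 8 HDR libraries. The part of such stray counts in the HDR values was not tested. The same 18 genes summed to 0 to 3 counts in all 8 PE2 libraries, where *Sycp1* reached 59.

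Germ cell markers overlapped between the PE2 genotypes. Summed over *Ddx4*, *Dazl*, *Stra8*, *Sycp2* and *Sycp3* they were 1.50 to 2.62 CPM in PE2 WT and 0.351 to 3.41 CPM in peg/peg aortae. *Stra8*, a gene of meiotic entry, was at 0 in all 8 PE2 libraries, *Dazl* had at most 2 counts, and *Ddx4*, a germ cell helicase, had 0 to 10 counts in WT and 2 to 9 in peg/peg libraries. *Sycp3*, which encodes the axial element of the same complex, had 0 counts in peg/peg library 3, the library with the most *Sycp1* counts. In a list of 14 other genes of the synaptonemal complex and meiosis, 6 were tested in PE2 aortae, and 0 passed an unadjusted p under 0.05 in either direction (edgeR, DESeq2 and limma voom called 0). The 3 pseudogenes annotated on the opposite strand within *Sycp1* had 0 counts in all 8 PE2 libraries.

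**Figure D2:**
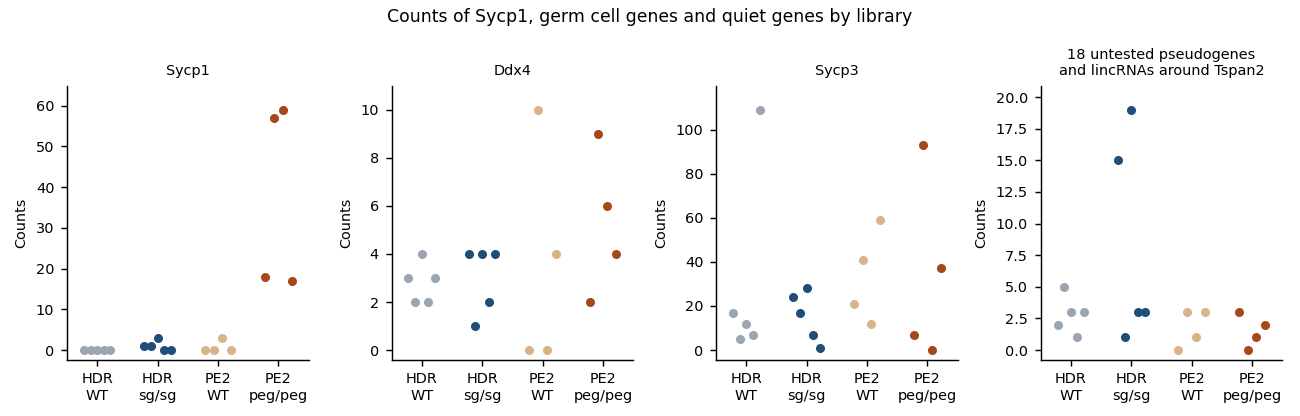
Counts per library of *Sycp1*, of the germ cell genes *Ddx4* and *Sycp3* and, summed, of 18 pseudogenes and lincRNAs around *Tspan2* that failed the filter. Each point is 1 library. *Sycp1* lay at 17 to 59 counts in the 4 peg/peg libraries and at 0 to 3 in all others, while *Ddx4* and *Sycp3* overlapped between genotypes.

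The sequence upstream of the start was available for 5 of the 8 members (RefSeq, GRCm38.p6). It was searched for CArG boxes, the kind of motif that was edited. None of these 5 had an intact box (CC and GG around 6 bases of A or T) on either strand of a 300-base window. The window ran from 250 bases before to 50 after the start, and 1.63% of all 32851 promoters had an intact box in it. A box farther upstream would be missed, and the paper places the conserved human *TSPAN2* box farther from its start than these 250 bases. A box with 1 base changed was found for *Casq2* and *Sycp1*, and in 21.1% of all promoters. For both genes, 100 of the bases before the start are shown on the gene's strand, with 11 bases in capitals that hold 2 overlapping matches, each of which reads as a match on the other strand too.
*Casq2*, chr3:102086315-102086414, plus strand: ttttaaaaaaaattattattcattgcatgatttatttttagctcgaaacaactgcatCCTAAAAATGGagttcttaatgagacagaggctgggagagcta
*Sycp1*, chr3:102936251-102936350, minus strand: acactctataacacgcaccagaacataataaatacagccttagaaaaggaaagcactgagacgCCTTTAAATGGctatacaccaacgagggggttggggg
The matches began 43 bases before the *Casq2* start and 187 bases before the *Sycp1* start. These letters are a description of the windows and not evidence of a bound site.

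*Casq2* differed in opposite directions in the 2 experiments, and each difference rested on 1 library. In HDR WT libraries 2 to 6 it was 1.11, 24.8, 1.54, 1.82 and 0.972 CPM, and in sg/sg libraries 2 to 6 it was 0.928, 1.01, 1.24, 1.54 and 1.06 CPM. Library 3 of the WT held 82.0% of the group's summed CPM, and the other 9 libraries overlapped. The mean was 6.05 ± 10.5 in WT and 1.16 ± 0.244 CPM in sg/sg aortae (n = 5 each), and the log2 fold change was -2.38 (SE 0.90, edgeR unadjusted p = 0.0220, adjusted p = 1.00, exact permutation p = 0.167). Without that library, the WT mean was 1.36 ± 0.393 CPM (n = 4) and the log2 fold change -0.23 (SE 0.28, edgeR unadjusted p = 0.436).

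In PE2 aortae *Casq2* was 1.02, 1.95, 4.55 and 2.67 CPM in WT libraries 1 to 4, and 4.39, 6.00, 126 and 2.48 CPM in peg/peg libraries 1 to 4. Library 3 of the peg/peg group held 90.8% of the group's summed CPM and was 29.5 times the mean of the other 3. The log2 fold change was 3.77 (SE 1.36, edgeR unadjusted p = 0.0236, adjusted p = 0.861, exact permutation p = 0.143). Without that library the peg/peg mean was 4.29 ± 1.77 CPM (n = 3), against 2.55 ± 1.49 CPM in WT aortae (n = 4), and the log2 fold change was 0.74 (SE 0.50, edgeR unadjusted p = 0.181). DESeq2 gave no p for *Casq2* in either experiment. The difference between the 2 genotype effects was 6.12 on the log2 scale (SE 1.67, edgeR unadjusted p = 0.00190, adjusted p = 0.870). It was 3.97 without HDR WT library 3, 3.10 without peg/peg library 3 and 0.97 (SE 0.57, unadjusted p = 0.108) without the 2 libraries highest in *Casq2*.

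Some muscle and epithelial markers were high with *Casq2* in these 2 libraries, and other muscle markers were not. Peg/peg library 3 had 518 CPM of *Tnnt2* and 509 of *Actc1*, both sarcomere genes of heart and embryonic muscle, and 756 of *Acta1*, the skeletal muscle actin. *Myh6*, the heavy chain of adult atrial and ventricular muscle, was 1.34 CPM there, below the 42.3 and 10.6 CPM of peg/peg libraries 2 and 4, in which *Casq2* was 6.00 and 2.48 CPM. Of the other cardiac markers, *Tnni3* was 1.69 CPM in library 3, the lowest of the 8 PE2 libraries, and *Nppa* 0.395 CPM, the highest. *Myl7*, at 2.88 CPM, was above every WT library (at most 0.861) but below the 16.2 and 8.24 CPM of peg/peg libraries 2 and 4. *Atp2a1*, the calcium pump of fast skeletal muscle, was 0.154 CPM in library 3, the lowest of the 8 PE2 libraries. HDR WT library 3 was the highest HDR library in *Myh6* (20.8 CPM), *Tnnt2* (75.0), *Tnni3* (4.11), *Actc1* (23.0) and *Myl7* (4.16). It was also the highest in the skeletal muscle markers *Acta1* (76.9 CPM) and *Ckm* (30.6 CPM). Its *Atp2a1*, at 0.709 CPM, was below the 0.962 to 6.59 CPM of the sg/sg libraries but above the other WT libraries (0.345 to 0.592). Its *Nppa* was 0.0945 CPM, below the 0.148 CPM of WT library 5. The 4 epithelial genes *Krt5*, *Krt8*, *Cdh1* and *Epcam*, chosen after their values were seen, summed to 318 CPM in peg/peg library 3 and to 1.84 to 14.2 CPM in the other 7 PE2 libraries. They summed to 42.2 CPM in HDR WT library 3 and to 0.193 to 24.1 CPM in the other 9 HDR libraries. Brown fat markers, *Ucp1* and *Cidea*, summed to 4.42 CPM in peg/peg library 3, against 437 to 1977 CPM in PE2 WT and 269.6 to 1263 CPM in the other peg/peg libraries. In HDR aortae *Ucp1* and *Cidea* summed to 209 to 900 CPM in WT and 132 to 1099 CPM in sg/sg libraries. Transcripts of brown fat were thus present in most libraries despite the cleaning described. Fibroblast markers summed to 5698 CPM in peg/peg library 3, against 723 to 2327 CPM in the other 7 PE2 libraries, and endothelial markers to 443 CPM, against 1088 to 2745 CPM. The part of these other tissues in the *Casq2* values was not tested.

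**Figure D3:**
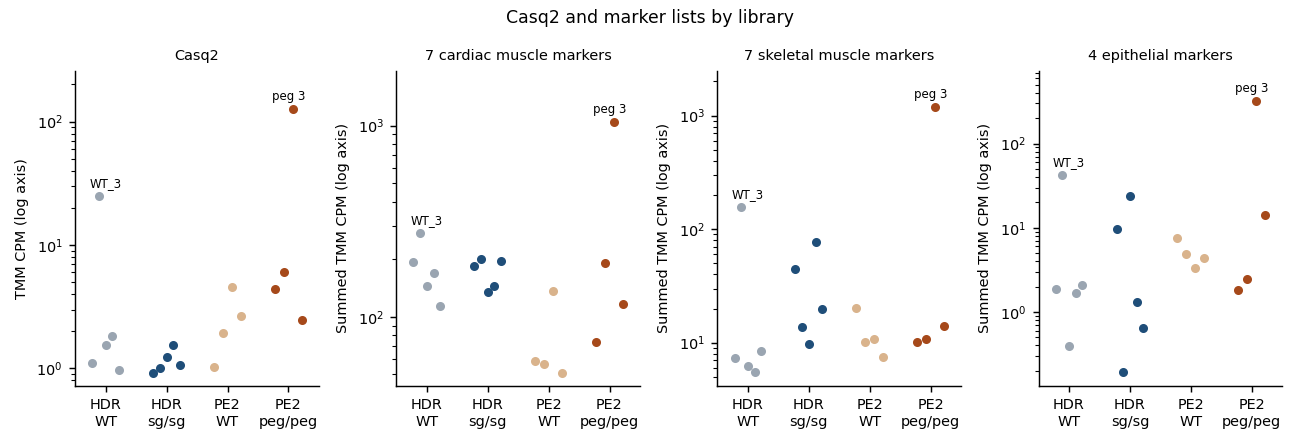
*Casq2* and the summed CPM of 7 cardiac muscle, 7 skeletal muscle and 4 epithelial markers in each library, on log axes. Each point is 1 library, and HDR WT library 3 (WT_3) and peg/peg library 3 (peg 3) are named. Both are the highest of their experiment in all 4 panels, with *Casq2* at 24.8 and 126 CPM.

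Of 12 other genes of sarcoplasmic reticulum calcium handling, 11 were tested in each experiment and 0 were called (edgeR, DESeq2 and limma voom). At an unadjusted p under 0.05, 1 was higher in HDR aortae and 2 in PE2 aortae, and none was lower, beside 1.98% and 4.3% of all genes in either direction. *Ryr1*, the calcium release channel of skeletal muscle, was 0.603 ± 0.0915 CPM in HDR WT and 2.02 ± 1.13 CPM in sg/sg aortae (log2 fold change 1.73, SE 0.40, edgeR unadjusted p = 0.00103, adjusted p = 1.00). The HDR difference of *Casq2* had the opposite direction but rested on WT library 3. *Ryr1* was highest in sg/sg library 2, at 3.49 CPM. Skeletal muscle markers summed to 44.3 and 77.6 CPM in sg/sg libraries 2 and 5, against 9.79 to 19.9 in the other sg/sg libraries. Among WT libraries *Ryr1* was highest in library 2, where these markers summed to 7.39 CPM. The part of skeletal muscle in the *Ryr1* values was not tested. *Trdn*, which anchors calsequestrin at the release channel, had a PE2 log2 fold change of 4.20 (SE 1.58), and *Ryr3*, another release channel, 3.13 (SE 1.25). Peg/peg library 3 held 93.1% of the peg/peg summed CPM of *Trdn* and 89.6% of that of *Ryr3*, and without it the values were 0.74 and 0.28.

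*Bcas2* was lower in PE2 aortae, by less than the test could call. It was 38.4, 38.9, 39.3 and 39.0 CPM in WT libraries 1 to 4, and 30.9, 33.7, 36.1 and 37.0 CPM in peg/peg libraries 1 to 4. Every peg/peg library was below every WT library. The mean fell by 11.4%, from 38.9 ± 0.343 to 34.4 ± 2.71 CPM (n = 4 each), with a log2 fold change of -0.18 (SE 0.08, 95% interval -0.36 to 0.0053, edgeR unadjusted p = 0.0556, adjusted p = 0.861, exact permutation p = 0.0286). The CV was 0.883% among WT and 7.86% among peg/peg libraries, so the WT libraries were much the tighter group. In HDR aortae *Bcas2* was 26.6 ± 2.95 CPM in WT and 26.7 ± 3.66 CPM in sg/sg aortae (n = 5 each), and its log2 fold change of 0.0016 had an interval of -0.26 to 0.27. The 2 effects did not differ beyond their error (difference -0.19, SE 0.15, edgeR unadjusted p = 0.218). All 12 other genes of the Prp19 complex, which acts in the catalytic steps of splicing, were tested in both experiments, and 0 passed an unadjusted p under 0.05 (edgeR, DESeq2 and limma voom called 0). Their median log2 fold change was 0.04 in HDR and 0.03 in PE2 aortae.

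*Sike1*, *Nras* and *Trim33* passed no test in either experiment, and their groups overlapped. *Sike1* was 54.4 to 61.8 CPM in HDR WT and 52.8 to 64.2 in sg/sg aortae, and 56.4 to 69.9 in PE2 WT and 65.3 to 67.3 in peg/peg aortae. Its log2 fold changes of 0.01 (SE 0.09) and 0.02 (SE 0.08) had 95% intervals of 0.883 to 1.15-fold in HDR and 0.885 to 1.16-fold in PE2 aortae. *Nras* was 41.5 to 51.8 CPM in HDR WT and 41.6 to 52.0 in sg/sg aortae, a log2 fold change of -0.0045 (0.862 to 1.15-fold). In PE2 aortae it was 36.8 to 50.7 CPM in WT and 39.3 to 55.1 in peg/peg aortae, with a log2 fold change of 0.14 (0.886 to 1.38-fold). *Trim33* was 62.9 to 81.0 CPM in HDR WT and 64.4 to 76.2 in sg/sg aortae, a log2 fold change of 0.05 (0.891 to 1.19-fold). In PE2 aortae it was 27.9 to 33.1 CPM in WT and 29.5 to 39.1 in peg/peg aortae, with a log2 fold change of 0.16 (0.934 to 1.34-fold).

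The lists for these 3 genes are read against 1.98% of all genes in HDR and 4.3% in PE2 aortae at an unadjusted p under 0.05. Over all 8 pathway lists, 1 of 82 genes tested passed in HDR (1.22%) and 8 of 84 in PE2 aortae (9.52%). Of 14 genes of TBK1 signalling and of STRIPAK, a phosphatase complex with which SIKE1 associates, 3 were higher at an unadjusted p under 0.05 in PE2 and 0 in HDR aortae. These were *Strn* and *Strn3*, striatin scaffolds of STRIPAK, with log2 fold changes of 0.21 (SE 0.09) and 0.25 (SE 0.10), and *Stk26*, one of its kinases, with 0.81 (SE 0.32) and 43.9% of its peg/peg summed CPM in library 3. Of 16 genes from Ras to ERK, 1 was higher in PE2 aortae, *Shoc2*, a scaffold that promotes RAF activation, with a log2 fold change of 0.21 (SE 0.08), and 0 passed in HDR aortae. Of 11 genes of the TRIM and Smad list, 0 passed in either experiment. edgeR, DESeq2 and limma voom called 0 genes of these lists.

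*Vangl1* was 16.8 to 20.2 CPM in HDR WT and 16.5 to 19.4 in sg/sg aortae, a log2 fold change of -0.02 (SE 0.10, 0.852 to 1.14-fold). In PE2 aortae it was 16.2, 18.6, 17.3 and 19.2 CPM in WT libraries 1 to 4 and 16.9, 17.8, 25.3 and 15.6 CPM in peg/peg libraries 1 to 4. The highest value was again that of peg/peg library 3. The log2 fold change was 0.09 (SE 0.16), and -0.09 without that library. Among 13 other genes of planar cell polarity, all tested in PE2 aortae, 1 was higher and 1 lower at an unadjusted p under 0.05, which 4.3% of all genes passed. *Ptk7*, a receptor-like protein of that pathway, had a log2 fold change of 2.62 (SE 1.13) with 87.7% of its peg/peg summed CPM in library 3, and 0.0021 without it. *Dvl1*, a cytoplasmic transducer of Wnt signals, was 81.5 ± 5.83 CPM in WT and 70.02 ± 5.39 CPM in peg/peg aortae (log2 fold change -0.22, SE 0.09). In HDR aortae 12 were tested and 0 passed. edgeR, DESeq2 and limma voom called 0 genes of the list.

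*Tshb*, which is transcribed from the strand opposite *Tspan2* and within its span, was at 0 in all 8 PE2 libraries. A count of 0 allows up to 0.0181 CPM over the WT and 0.0183 CPM over the peg/peg group, for counting error only. In HDR aortae it had 2 counts in WT library 3, 3 in sg/sg library 2 and 1 in sg/sg library 4, and 0 in the other 7, a ratio of 2.22 (exact 95% interval 0.318 to 24.6, for counting error only). Pituitary markers (*Cga*, *Pou1f1*, *Gh*, *Prl* and *Pomc*) summed to at most 0.539 CPM in any library. *Cga*, the shared subunit that pairs with thyrotropin beta, had 1 count over 18 libraries. Of 6 genes of the thyrotropin axis, 1 passed the filter in each experiment, and 0 passed an unadjusted p under 0.05 (edgeR, DESeq2 and limma voom called 0).

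**Figure D4:**
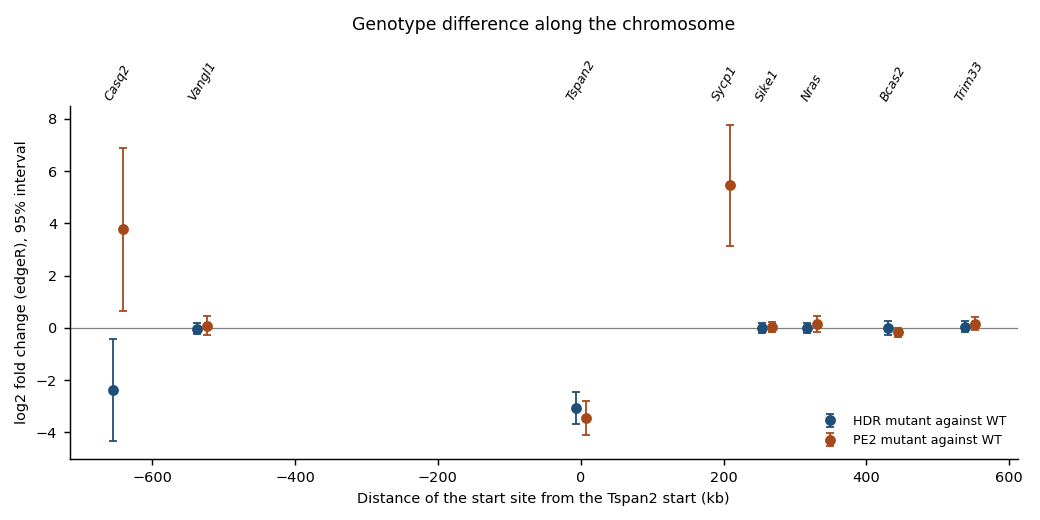
Log2 fold change of the mutant against WT (edgeR, with 95% intervals) for *Tspan2* and each member tested, placed by the distance of its start site from that of *Tspan2* in kb, and offset sideways so that both experiments can be seen. *Tspan2* fell in both, the values of *Vangl1*, *Sike1*, *Nras*, *Bcas2* and *Trim33* lay between -0.18 and 0.16, and *Casq2* and *Sycp1* had the widest intervals.

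Among the 7 members tested in PE2 aortae, *Sike1*, 261 kb from the *Tspan2* start, had the smallest fitted difference, and the members with the largest, *Sycp1* and *Casq2*, were 202 kb downstream and 648 kb upstream. Of the 6 members tested for a difference between experiments, 0 were called, where edgeR called 0.0% of 18094 genes. At an unadjusted p under 0.05 there was 1 (*Casq2*), against 5.13% of all genes. limma voom called 0 members, against 0.0% of genes, and DESeq2 called 0 members, against 0.0275% of genes with a p. *Sycp1* failed the filter of that test, and DESeq2 gave a difference of 3.05 for it (unadjusted p = 0.111), so that the PE2 effect was not shown to differ from that in HDR aortae.

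Of other genes at the locus, *Dennd2c* and *Slc22a15* passed the filter in both experiments, and 0 of them were called by edgeR, DESeq2 or limma voom. *Dennd2c*, a gene of the DENN domain family, had log2 fold changes of -0.19 (SE 0.18) in HDR and 0.38 (SE 0.32) in PE2 aortae. *Slc22a15*, a solute carrier gene farther upstream than *Casq2*, had log2 fold changes of 0.08 (SE 0.14) and -0.36 (SE 0.15, edgeR unadjusted p = 0.0408). *Tspan2os*, the antisense RNA at the *Tspan2* start, had 6 counts in HDR WT and 1 in sg/sg aortae, and 17 in PE2 WT and 3 in peg/peg aortae, with ratios of 0.185 (exact 95% interval 0.00403 to 1.53) and 0.177 (0.0333 to 0.613). Both intervals are of pooled counts and cover counting error only, not the spread between aortae. By library the groups overlapped in both experiments, with an exact permutation p of 0.167 in HDR and 0.0571 in PE2 aortae.

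Per kilobase of exon, the order of levels in HDR WT aortae was *Nras*, at 8.72 ± 0.794 CPM per kb, *Trim33* at 6.94 ± 0.756, *Bcas2* at 6.07 ± 0.673, *Sike1* at 5.68 ± 0.264, *Vangl1* at 2.51 ± 0.182 and *Casq2* at 2.21 ± 3.84, with *Tshb* and *Sycp1* near 0 (n = 5). Neighbours from *Nras* to *Sike1* overlapped in their ranges, and so did *Vangl1* with *Casq2*. In PE2 WT aortae the order was *Bcas2*, at 8.86 ± 0.0782 CPM per kb, *Nras* at 8.09 ± 1.19, *Sike1* at 6.38 ± 0.605, *Trim33* at 3.11 ± 0.302, *Vangl1* at 2.49 ± 0.188 and *Casq2* at 0.931 ± 0.546 (n = 4). There, *Bcas2* and *Nras* overlapped, and the others did not overlap with the next. The experiments were normalized separately and differ in age, strain label and depth, so that levels across them, such as those of *Trim33*, were not compared.

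The genes most like each member were sought over 18 libraries, by the Pearson correlation of log2(CPM + 1) centred within each experiment, among 14761 genes tested in both. The libraries share depth and tissue make-up, and r is a description. For *Casq2* these were *Synm* (r = 0.97), which encodes an intermediate filament protein of muscle, and *Enho* (r = 0.96), and without the 2 libraries highest in *Casq2* r was 0.54 and 0.39 (n = 16). For *Vangl1* they were *Fuca2* (0.89) and *Ms4a7* (0.88), for *Sike1* *Pdzrn4* (0.84) and *Kcnc4* (0.82), for *Nras* *Usp31* (0.83) and *Med13* (0.82), for *Bcas2* *Ppp1r35* (0.91) and *Thap7* (0.90), and for *Trim33* *Ube3a* (0.89) and *Dmxl1* (0.87). Without the same 2 libraries r fell to 0.70 and 0.67 for *Vangl1*, and was 0.84 to 0.95 for the genes nearest *Sike1*, *Nras*, *Bcas2* and *Trim33*. Among the members, *Nras* and *Trim33* had the highest r, at 0.73 with all libraries and 0.78 without those 2. The r of *Casq2* and *Vangl1* was 0.65 with them and 0.09 without.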

How the data were processed

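The authors deposited raw counts per gene symbol for each experiment, made per the labels and methods with fastp, STAR 2.7.0f, GRCm38, Gencode M22 and featureCounts of Subread 1.6.4. The strand setting is not given in the sources used here, and labels and methods differ on the library kit and read length. The deposited DESeq2-normalized table was not used.

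Genotypes were compared within each experiment by edgeR 4.0.16 in R 4.3.3 (TMM, filterByExpr, estimateDisp, glmQLFit, glmQLFTest, no covariate), with Benjamini-Hochberg adjusted p under 0.05 over all genes tested. Differences between experiments were an interaction contrast over 18 libraries. DESeq2 1.42.0 (at its 0.05 filtering level, set after its first counts were seen) and limma 3.58.1 (voom) were alternatives. The scripts were tested on simulated data. Single CPM values were compared by exact two-sided permutation tests (scipy 1.17.1), whose smallest p is 0.00794 for 5 against 5 and 0.0286 for 4 against 4. Limits for a count of 0 are 3 counts over a group. Replicates are single aortae, and no pair agreed within sampling noise (lowest chi-square per degree of freedom 17.2).

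Positions came from Gencode M21 and promoters from RefSeq. The 8 members, the 8 pathway lists and the marker lists were chosen with earlier results of these data known. The genes named are the members, *Tspan2* and *Tspan2os*, genes between the outermost members or within 1 Mb, pathway genes with an unadjusted p under 0.05, and the 2 genes most correlated with each member tested in both experiments. Some of them are not reported here.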

Additional observations from a re-analysis of the deposited data

Results flagged for a closer look

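In 29 groups of 4 or 5 libraries, Dixon's ratio put 5 values of members far from the rest of their group, and chance puts about 1 in 20 there. That rate does not apply to *Tshb* and *Sycp1*, since any group with a single library above 0 is set apart in this way. *Casq2* was 24.8 CPM in HDR WT library 3, against 0.972 to 1.82 in the other 4, and 126 CPM in peg/peg library 3, against 2.48 to 6.00 in the other 3. *Tshb* was 0.0945 CPM (2 counts) in HDR WT library 3 and 0 in the other 4. *Sycp1* was 0.0662 CPM (3 counts) in PE2 WT library 3 and 0 in the other 3. *Trim33* was 81.0 CPM in HDR WT library 4, against 62.9 to 67.4 in the other 4.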

How the results depend on the processing

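The counts of members called were 0 under 61 of 62 alternatives, and 1 in PE2 aortae under DESeq2, whose one call was *Sycp1*. With the replicate number as a block, which the data do not bear out as a pairing (r of same-numbered deviations -0.23 to -0.023), 0 members were called in PE2 aortae, and the log2 fold change of *Sycp1* was 5.84 and that of *Casq2* 2.06. The HDR columns carry no number of the labels, so no block was tried there. The *Tspan2* fold in PE2 aortae stayed between -3.60 and -3.28 with each library left out, but its adjusted p was 0.0604 to 0.224 without any single library other than peg/peg library 3, 0.128 in females alone, 0.146 with sex as a covariate and 0.309 with the block. Leaving out each library moved the mean difference of *Sycp1* in PE2 aortae between 0.709 and 1.05 CPM and that of *Bcas2* between -5.29 and -3.27 CPM, and the female libraries alone gave 0.884 and -4.42 CPM. With 3 libraries against 4 the smallest exact permutation p is 0.0571. Both genes had groups that did not overlap, so this p was reached whichever library was left out and adds no support. The mean difference of *Casq2* ran from -6.16 to -0.203 CPM in HDR and from 1.74 to 43.0 CPM in PE2 aortae. The log2 fold change of *Sycp1* ran from 5.10 to 8.20, the last without WT library 3, when the WT is at 0 and the value depends on the prior count.

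Differences near 0 changed sign, and so did those of *Dennd2c*, *Ptk7* and *Trdn* in PE2 aortae, which were larger with all libraries. With each library left out, HDR log2 fold changes ran from -0.061 to 0.020 for *Vangl1*, -0.022 to 0.048 for *Sike1*, -0.047 to 0.037 for *Nras* and -0.055 to 0.045 for *Bcas2*. PE2 values ran from -0.093 to 0.15 for *Vangl1*, -0.057 to 0.043 for *Sike1* and -0.0070 to 0.54 for *Dennd2c* (0.38 with all libraries). The difference between experiments ran from -0.074 to 0.16 for *Vangl1* and -0.079 to 0.039 for *Sike1*. In HDR aortae, without a filter beyond 1 count *Sike1* was -0.0022 and *Bcas2* -0.013. *Bcas2* was -0.0027 with at least 10 counts in every library and -0.00083 by limma voom, and *Nras* was 0.0058 with DESeq2 size factors and 0.0040 by DESeq2. Without peg/peg libraries 2 and 3, chosen after seeing the data, PE2 values were -0.12 for *Vangl1*, -0.29 for *Ptk7* and -0.54 for *Trdn*. With all libraries they were 0.09, 2.62 and 4.20. The difference for *Sike1* was 0.0027 with DESeq2 size factors, 0.0032 by DESeq2, 0.0060 without the filter and 0.013 with at least 10 counts, and that for *Vangl1* was -0.067 without the 2 libraries highest in *Casq2*. The cause was not tested. With 4 or 5 libraries a group and *Sycp1* and *Tshb* at a few counts, depth limits what can be said of both genes.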
